A study of Mus musculus with 8 samples.

Results

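The genes described here are 10 parts of the hypoxia-inducible factor (HIF) system: the alpha subunits Hif1a, Epas1 (which encodes the alpha subunit of HIF-2) and Hif3a, the shared beta subunit Arnt, the degradation machinery Vhl, Egln1, Egln2 and Egln3, the coactivator competitor Cited2 and the target Vegfa. They were chosen by gene symbol from a table of 38172 genes, and all 10 matched 1 row each. RNA with polyA tails was measured in haematopoietic stem cells (HSCs) of wild-type C57BL/6 mice aged 4 months (young) or 24 months (old), for which the labels name no treatment. The cells were sorted as SP-KSL-CD150+, that is, cells of the dye-effluxing side population that are lineage-negative, Kit+, Sca-1+ and CD150+. Each age had 2 biological replicates, numbered 13 and 14, and each replicate was sequenced as 2 technical libraries, which were averaged, giving n = 2 at each age. How many mice went into a replicate is not stated in the labels, and the p-values cover only the spread among these 4 replicates.

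A HIF is a dimer of an alpha subunit and Arnt. While oxygen is present, the prolyl hydroxylases encoded by the Egln genes mark the alpha subunit, the Vhl ubiquitin ligase binds the marked protein, and the proteasome destroys it. When oxygen runs low the alpha subunit is spared, enters the nucleus and drives genes of glycolysis, vessel growth and iron handling through short DNA elements. The bone marrow in which HSCs reside is low in oxygen, and mouse genetics has tied Hif1a, Vhl and Cited2 to the maintenance of HSCs. Because alpha subunits are controlled mainly as proteins, the RNA levels below do not measure HIF activity.

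Epas1 was the only member of the system that passed the test for a change with age in the fit on age alone. It rose 2.61-fold in old HSCs, whereas Hif1a, Arnt, Vhl and the Egln genes had fitted changes near 0 or within the spread of the replicates. With the replicate number added to the fit, Cited2 and Vegfa passed too, as given at the end. All 10 members were abundant enough to be tested. In limma, with p-values adjusted by Benjamini-Hochberg and a threshold of 0.05, 1 was called higher and 0 lower, against 2.55% of all 18318 genes tested (2.01% higher and 0.54% lower). Limma-voom also called 1, and 3 of the 10 had an unadjusted p under 0.05 in limma, against 14.0% of all tested genes. The median log2 fold change of the members was 0.04, as was that of all tested genes. Outside the 10 members, in 4 lists of pathway genes, Vldlr, Lox and Kdr rose and Hmox1 fell. Of these, Lox and Hmox1 lost their calls in most alternative settings. Vldlr kept its call in 9 of 15 settings and Kdr in 10 of 15, as did Epas1. Bhlhe41 was also called higher, but it passed the filter on low values only through the old samples.

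**Figure D1:**
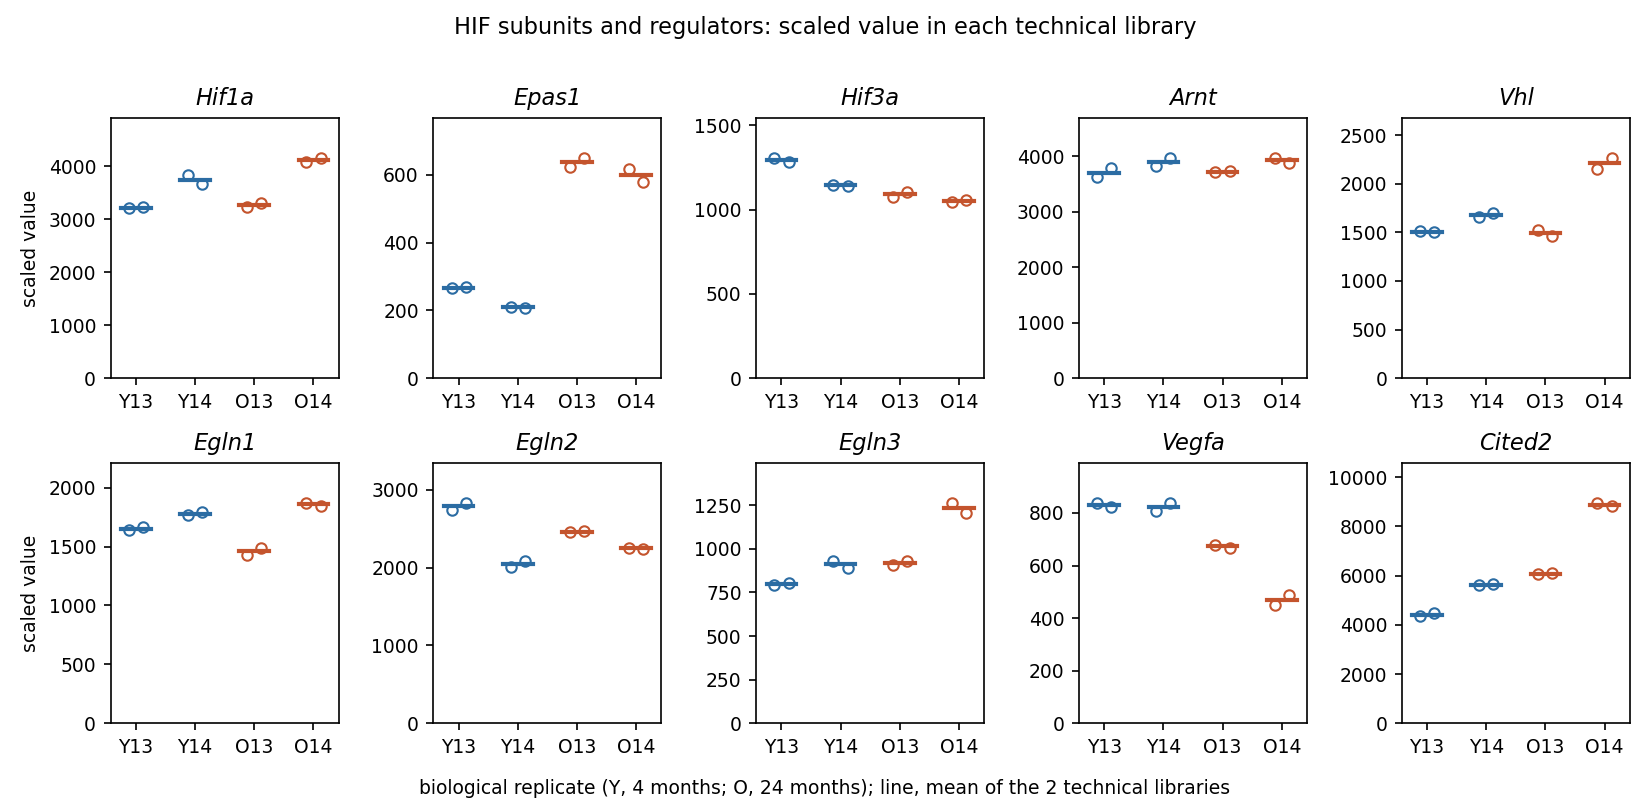
Scaled value (vertical axis, from 0) of each of the 10 genes in the 8 technical libraries; Y13 and Y14 are the young replicates, O13 and O14 the old ones, circles are technical libraries and lines their mean. In Epas1 all 4 old libraries lie between 578 and 651 and all 4 young ones between 206 and 269, while Arnt and Hif1a show overlapping ages.

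The depth and purity of the samples bear on all of these values. The deposited values, which the authors scaled to similar totals, summed to between 40.7 M and 44.2 M per library, and the pattern of skipped or doubly filled whole numbers put the reads before scaling at 22.3 M to 66.5 M. Kit, Ly6a, Slamf1, Abcg2 and Procr were detected in every replicate, with summed values of 68835 and 67053 in young against 75341 and 85681 in old HSCs. Kit made up most of each sum, at 56382 and 54958.5 in young against 57824 and 63949.5 in old HSCs. Slamf1, which encodes CD150, and Procr both rose (adjusted p = 0.0226 and 0.0483 in limma; limma-voom called 1 of the 5), and Kit had a log2 fold change of 0.13. Neutrophil markers varied most, with summed values over 11 genes of 14115 and 52328.5 in young against 13262.5 and 26978.5 in old HSCs, and 0 of 11 called in limma or limma-voom (6 at an unadjusted p under 0.05 in limma). The fitted change was below 0 for 10 of the 11, with Ltf at -3.14, and above 0 for Prtn3, the most abundant by mean FPKM. Prtn3 was 4457 and 6940 in young against 7700.5 and 9944.5 in old HSCs. Mpo, the largest part of the young 14 sum, was 3598 and 27761.5 in young against 4428 and 10021.5 in old HSCs. The 9 stroma markers summed to 7120 and 7604 in young against 3289.5 and 3027.5 in old HSCs (3 fell: Col1a1, Col3a1 and Sparc), the 9 erythroid rows to 8018.5 and 7343 against 3749.5 and 4004.5 (5 fell), and the 8 macrophage markers to 1998 and 3828 against 1237.5 and 1682 (1 fell, Vcam1). In the same order of lists, the most abundant were Col1a2, at 5.44 FPKM on average, the Hba-a1,Hba-a2 row, at 24.1, and Cd68, at 5.05. None of them was called. Their log2 fold changes were -1.29, -0.15 and -0.53, and the ages overlapped in the Hba-a1,Hba-a2 row and in Cd68. Lymphoid markers, led in FPKM by Vpreb1, summed to at most 330, and the 4 megakaryocyte markers, led by Itga2b, to between 16687.5 and 21267. In limma or limma-voom 0 of either list were called, and 0 had an unadjusted p under 0.05 in limma. In sorted bulk RNA a smaller number of cells of a type and less RNA per cell cannot be told apart.

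The short DNA element that HIF dimers recognise has the core ACGTG or GCGTG. It was searched on both strands (so also as CACGT and CACGC, with overlapping matches joined) in the 250 bases before the RefSeq start of each gene, taken from the RefSeq promoter table on GRCm38.p6, a later build than the mm9 of the expression table. Of the 10 members 9 matched a promoter there. The one without was Epas1, and the pathway genes Lox and Hmox1 had none either. A core was held by 7 of these 9 windows (77.8%), against 38.6% of the windows of all 27025 genes. The GC content of the member windows ran from 50.8% to 86.0%, and the shares were not matched for it. The windows shown are that of Hif1a, the most abundant alpha subunit, and those of Bhlhe41, Kdr and Vldlr as pathway genes that were higher in old HSCs. Capitals mark every match.
Hif1a, chr12:73907617-73907866, plus strand: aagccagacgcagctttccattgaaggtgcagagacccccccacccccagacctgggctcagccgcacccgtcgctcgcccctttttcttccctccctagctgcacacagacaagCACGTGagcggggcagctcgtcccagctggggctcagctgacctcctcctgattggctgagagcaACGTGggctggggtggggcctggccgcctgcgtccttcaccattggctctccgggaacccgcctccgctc
Bhlhe41, chr6:145865421-145865670, minus strand: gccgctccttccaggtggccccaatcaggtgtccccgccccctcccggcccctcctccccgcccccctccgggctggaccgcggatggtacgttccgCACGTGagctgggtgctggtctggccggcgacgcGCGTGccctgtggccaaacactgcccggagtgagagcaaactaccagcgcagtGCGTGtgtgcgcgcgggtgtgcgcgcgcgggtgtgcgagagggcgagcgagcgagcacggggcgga
Kdr, chr5:75978456-75978705, minus strand: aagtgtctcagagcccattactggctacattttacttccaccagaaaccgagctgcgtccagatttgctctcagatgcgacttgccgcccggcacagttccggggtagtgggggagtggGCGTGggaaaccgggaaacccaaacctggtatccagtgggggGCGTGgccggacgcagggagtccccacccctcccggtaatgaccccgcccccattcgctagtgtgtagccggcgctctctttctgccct
Vldlr, chr19:27216234-27216483, plus strand: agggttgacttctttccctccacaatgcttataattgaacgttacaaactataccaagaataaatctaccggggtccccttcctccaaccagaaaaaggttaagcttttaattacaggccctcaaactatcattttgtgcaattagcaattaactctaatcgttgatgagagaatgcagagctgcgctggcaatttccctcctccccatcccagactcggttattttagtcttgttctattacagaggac
The Hif1a window held 2 separate stretches with a core, that of Bhlhe41 3 and that of Kdr 2. The Vldlr window held 0. These matches describe letters and not bound sites.

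Among the alpha subunits, Epas1 was the least abundant and the one that moved. Epas1 (mm9 chr17:87153204-87232750, plus strand) had scaled values of 265 and 269 in the technical libraries of young 13, 211 and 206 in young 14, 624 and 651 in old 13, and 618 and 578 in old 14. All 4 old libraries lay above all 4 young ones, and technical libraries of a replicate differed by at most 6.92%, on 144 to 674 reads per library. The mean was 237.8 ± 41.4 in young and 617.8 ± 27.9 in old HSCs (SD, n = 2 per age). The log2 fold change was 1.39 (SE 0.20, adjusted p = 0.0199 in limma across all genes), with old above young in both replicates of each age. Without young 14 the log2 fold change was 1.21 and the call was lost (adjusted p = 0.118), whereas without young 13 it was 1.56 and the call held (adjusted p = 0.0374). Without old 13 it was 1.34 and without old 14 it was 1.43, and the call was lost in both. Every fit without 1 replicate left 1 age as a single sample, assumed to vary like the other age. Whether a call was kept or lost there rests on that assumption. The call was also lost, at the same fold change, with no filter on low values (adjusted p = 0.127) and with a prior without a trend (adjusted p = 0.0579).

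Epas1 is abundant in endothelium, so endothelial markers were read beside it. Cdh5, an endothelial cadherin, was near 0 at 19 and 16 in young and 7 in each old replicate, a mean FPKM of 0.0617. Plvap was also low, at 0.748 FPKM. Pecam1, Tek and Emcn were well above both, at 17.98, 15.95 and 14.18 FPKM, and were not called. Of the 8 genes in that list 2 rose (Vwf and Kdr), 0 fell and 4 had fitted changes below 0, Cdh5 among them. The list summed to 34588 and 34978 in young against 59415 and 64544.5 in old HSCs. Vwf and Tie1 were the most abundant of the list. Vwf was 10990 and 13906 in young against 35059.5 and 40728.5 in old HSCs, while the ages overlapped in Tie1 (log2 fold change 0.11). The part that other cells, or the rise of the sort gene Slamf1, had in the Epas1 values was not tested.

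Hif1a (mm9 chr12:75008854-75048517, plus strand), the best-known oxygen-regulated subunit, had scaled values of 3215.5 and 3747 in young against 3261 and 4120 in old HSCs. The ages overlapped, and the log2 fold change of 0.08 had an unadjusted 95% interval from -0.33 to 0.48 (adjusted p = 0.903 in limma), so a change of the size seen in Epas1 lay outside it. Hif3a (chr7:17616342-17647776, minus strand), the remaining alpha subunit, with several short forms that can dampen the others, was 1294.5 and 1144 in young against 1090 and 1051 in old HSCs. Both old values were below both young ones by little, and Hif3a did not pass (log2 fold change -0.19, interval -0.54 to 0.17, adjusted p = 0.684). Arnt (chr3:95238312-95301161, plus strand), the beta subunit that all alpha subunits need, was the steadiest member, at 3698.5 and 3899.5 in young against 3721.5 and 3926 in old HSCs (log2 fold change 0.01, interval -0.31 to 0.33).

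On the FPKM scale, which corrects for gene length and so allows genes to be set side by side, Epas1 rose from 0.891 ± 0.155 to 2.32 ± 0.105 (SD, n = 2), while Hif1a was 14.7 ± 1.58 and 15.6 ± 2.56. Hif1a FPKM exceeded Epas1 FPKM by 13.5 and 20.2 times in the young replicates and by 5.75 and 7.75 times in the old ones. Of the summed FPKM of the 3 alpha subunits, Epas1 held 5.48% and 3.94% in young against 12.4% and 9.92% in old HSCs. Hif1a remained the main alpha transcript in every replicate, with 71.4% to 79.6% of that sum. The log2 ratio of Epas1 to Hif1a was -4.05 ± 0.41 in young and -2.74 ± 0.30 in old HSCs, a difference of 1.31 (two-sided exact permutation p = 0.333, the smallest that 4 samples allow). Both old ratios lay above both young ones. Arnt, at 17.0 to 18.1 FPKM, was close to the summed alpha subunits, at 18.2 to 22.6 FPKM.

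**Figure D2:**
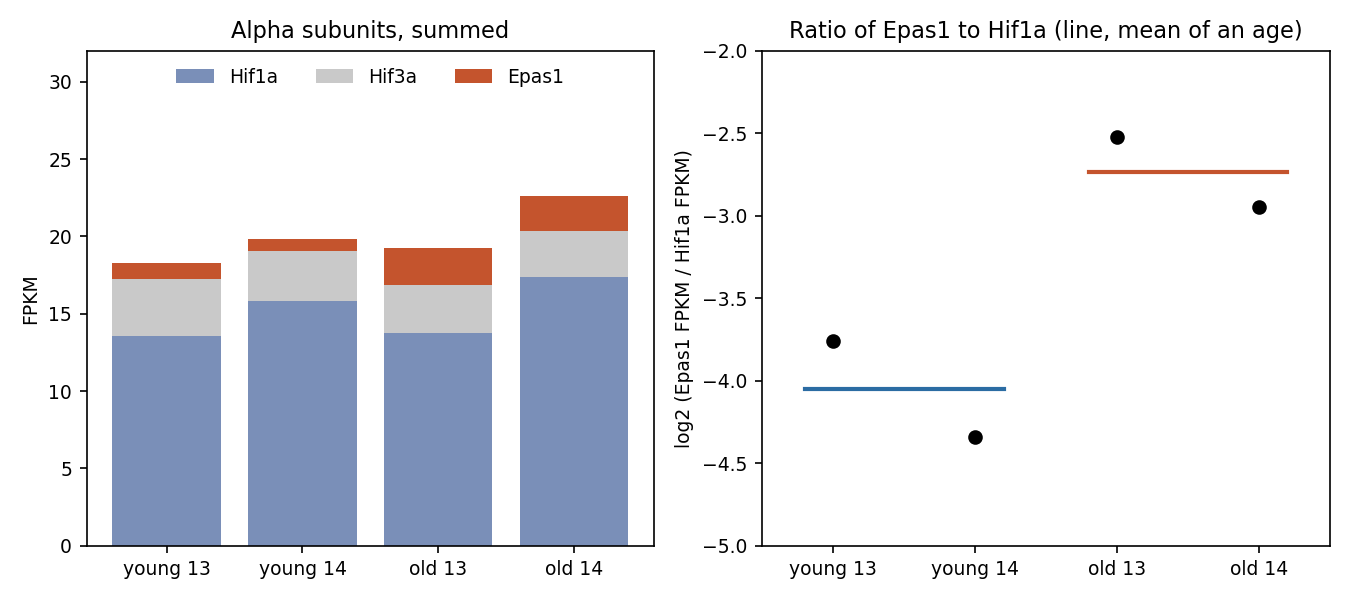
Left, FPKM of the 3 alpha subunits stacked for each biological replicate; right, log2 ratio of Epas1 to Hif1a FPKM, points being replicates and lines the mean of an age. The Epas1 part of the bars grows from between 0.782 and 1.001 FPKM in young to between 2.24 and 2.39 FPKM in old replicates, and both old ratios, -2.52 and -2.95, lie above both young ones.

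The oxygen sensors and the ubiquitin ligase showed no called change. Egln1 (mm9 chr8:127432487-127473154, minus strand), the main hydroxylase of HIF alpha subunits in most cells, was 1653.5 and 1780.5 in young against 1460 and 1857.5 in old HSCs. It overlaps an unnamed gene model on the opposite strand by 125 bases, whose mean of 4.6 is small beside the 1687.9 of Egln1. Egln2 (chr7:27943677-27951821, minus strand), a paralog, was 2788.5 and 2046 in young against 2462 and 2246.5 in old HSCs. In both genes the ages overlapped, with intervals of the log2 fold change from -0.46 to 0.34 for Egln1 and from -0.45 to 0.41 for Egln2. Egln3 (chr12:55279968-55304861, minus strand), a paralog that HIFs themselves induce, was 798 and 910 in young against 917.5 and 1235.5 in old HSCs. The lower old value exceeded the higher young one by less than the replicates of either age differed, and Egln3 did not pass (log2 fold change 0.32, interval -0.14 to 0.78, adjusted p = 0.556). Vhl (chr6:113574015-113581627, plus strand), the substrate receptor of the ligase, was 1507.5 and 1679.5 in young against 1495 and 2211 in old HSCs, where old 14 alone was high (log2 fold change 0.19, adjusted p = 0.772).

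Cited2 and Vegfa had larger fitted changes that missed the threshold after adjustment in the fit on age alone. Of the alternative settings, only the one that added the replicate number called them. Cited2 (mm9 chr10:17443034-17445480, plus strand), which competes with alpha subunits for the coactivators CBP and p300 and is itself a HIF target, was the most abundant member. It had scaled values of 4408 and 5624 in young against 6084.5 and 8889.5 in old HSCs. The ages did not overlap, but the gap between them was smaller than the spread within each. The log2 fold change was 0.56 (SE 0.22, unadjusted p = 0.0382, adjusted p = 0.312 in limma), and it was 0.29 without old 14 and 0.84 without old 13. Vegfa (chr17:46153943-46169326, minus strand), the vascular growth factor and a classic HIF target, was 831.5 and 822 in young against 672.5 and 468.5 in old HSCs. Both old values were lower, with the young replicates nearly equal and the old ones apart. The log2 fold change was -0.56 (SE 0.21, unadjusted p = 0.0321, adjusted p = 0.285 in limma), and it was -0.30 without old 14 and -0.82 without old 13.

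Of the 10 members, 3 (Epas1, Cited2 and Egln3) had both old replicates above both young ones, an arrangement found in 24.7% of tested genes, and 2 (Hif3a and Vegfa) had both below, as did 17.4%. The authors' deposited table marked Epas1 (log2 fold change 1.35, FDR 2.49e-17) and Cited2 (0.54, FDR 5.51e-05) as higher and Vegfa (-0.56, FDR 0.000246) as lower in old HSCs, and left the other 7 unmarked. That table marked 11.8% of the 22284 genes it gives an FDR for (6.0% higher and 5.82% lower), and which libraries it counted as replicates is not given in the sources used here.

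**Figure D3:**
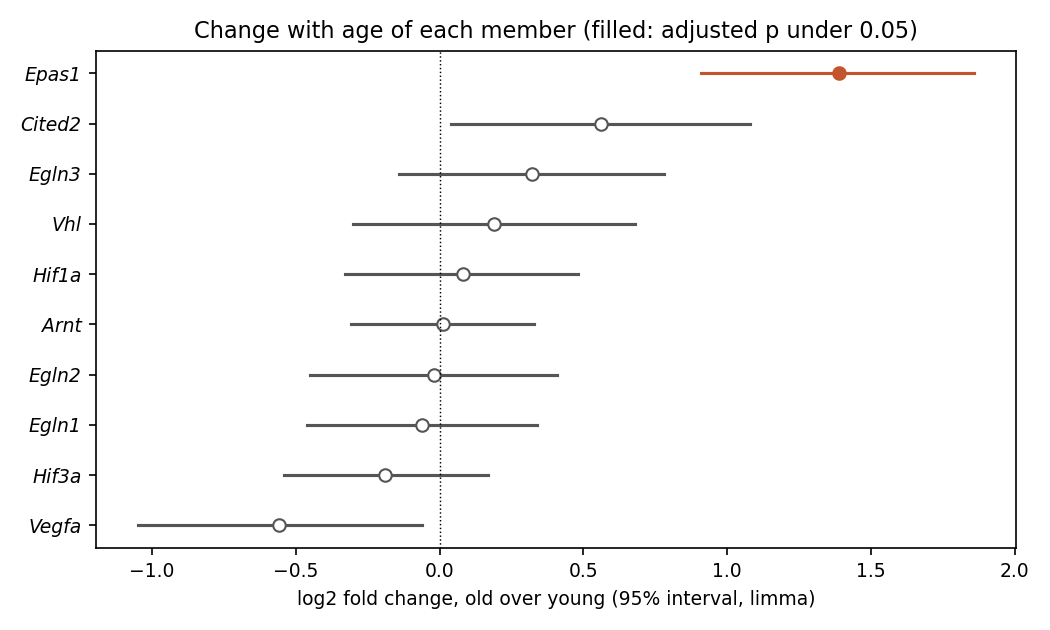
Log2 fold change of old over young HSCs for each of the 10 genes (points) with the unadjusted 95% interval of the limma fit (lines); the filled point passed the adjusted threshold. Only Epas1, at 1.39, is filled; the intervals of Cited2 and Vegfa exclude 0 before adjustment, and the other 7 span it.

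By FPKM the members ranged over more than an order of magnitude. Cited2 led with a mean of 63.6 over the 4 replicates, followed by Egln2 at 22.7, Arnt at 17.5, Hif1a at 15.1, Vhl at 12.6, Egln1 at 9.59, Egln3 at 7.23, Vegfa at 3.35, Hif3a at 3.27 and Epas1 at 1.60. The ranges over the 4 replicates overlapped between Arnt and Hif1a, between Hif1a and Vhl, between Egln1 and Egln3, and between Vegfa and Hif3a. The other neighbours in this order did not overlap. The hydroxylase transcripts were thus ordered Egln2, Egln1 and Egln3 in these cells, and Epas1 stayed below Hif3a even in old HSCs, at 2.39 FPKM or less against 3.002 or more.

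The 3 named genes whose profile over the 8 libraries was nearest to that of Epas1, by Euclidean distance of centred log2 values among 10614 genes, were Ctsw, Ptpru and Gprc5a. Ctsw, a cathepsin known from cytotoxic lymphocytes, was 398 and 333 in young against 987.5 and 932 in old HSCs. Ptpru, a receptor tyrosine phosphatase, was 222 and 167.5 in young against 565.5 and 513.5 in old HSCs. Gprc5a, an orphan receptor that retinoic acid induces, was 98.5 and 78 against 217.5 and 225. They were picked for this likeness, so it is a description.

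Other genes that bind, modify or compete with HIFs mostly had small fitted changes. Of 33 such genes 31 passed the filter, 1 was called higher and 0 lower, against 2.01% and 0.54% of all tested genes. An unadjusted p under 0.05 was found for 6 of the 31 (19.4%, against 14.0%), 17 lay above 0 (54.8%, against 56.5%), and the median log2 fold change was 0.02, against 0.04. The gene called higher was Bhlhe41, a transcriptional repressor of the circadian clock that is induced by hypoxia and can promote HIF degradation. It was 4 and 5.5 in young against 46.5 and 42 in old HSCs, so it passed the filter only through the old samples, and its level in old HSCs was still low. A gene that enters the test in this way had to differ, so its call and its fitted log2 fold change of 3.10 are a description.

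Its paralog Bhlhe40, also a hypoxia-induced repressor, was 653 and 883.5 in young against 1267.5 and 1636 in old HSCs, and did not pass (log2 fold change 0.92, adjusted p = 0.0841). Cited4, a relative of Cited2, was 155.5 and 173 in young against 314.5 and 346.5 in old HSCs (1.01, adjusted p = 0.0607). In all of these the old replicates lay above the young ones without overlap. Npas3, a neuronal relative of the alpha subunits, was 67 and 70 against 135 and 108 (0.81, adjusted p = 0.214). Hif1an, the asparagine hydroxylase that blocks the transactivation domain of alpha subunits, was 4669.5 and 4201.5 in young against 4364.5 and 4734.5 in old HSCs, with overlapping ages (0.04, interval -0.30 to 0.37).

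Glycolytic targets of HIF, the enzymes and carriers that raise glucose use in low oxygen, gave no call in the fit on age alone. All 23 were tested, 0 passed in limma or limma-voom, and 4 had an unadjusted p under 0.05 with either tool, all of them with positive log2 fold changes in limma. That is 17.4% of the list, near the 14.0% of all tested genes. The median was 0.06 and 13 of 23 lay above 0, the same share, 56.5%, as over all tested genes. Hk2, an inducible hexokinase, was 2914.5 and 2903 in young against 4221 and 4591.5 in old HSCs (log2 fold change 0.60, adjusted p = 0.0839). Pfkp, the platelet-type phosphofructokinase, was 3377.5 and 3345 in young against 4813.5 and 5198.5 in old HSCs (0.57, adjusted p = 0.0953). In both the old replicates lay well apart from the young ones. Pfkfb3, which makes the activator of phosphofructokinase, was 3169 and 3687.5 against 4063.5 and 5215.5 (0.43, adjusted p = 0.330), and Eno2, an enolase of neurons, was 286 and 243.5 against 393.5 and 353.5 (0.50, adjusted p = 0.321). Pdk1, a HIF target that keeps pyruvate out of mitochondria, was 5959.5 and 6560.5 in young against 5359.5 and 7068 in old HSCs, with overlapping ages. Gapdh, Pgk1 and Pgam1 have near-identical processed copies in the genome, and their values are uncertain.

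Of 44 other HIF targets 38 passed the filter, 2 rose and 1 fell, against 2.01% and 0.54% of all tested genes. An unadjusted p under 0.05 was found for 8 of the 38 in limma (21.1%, against 14.0% of all tested genes) and for 6 in limma-voom. In limma 17 lay above 0 (44.7%, against 56.5%), and the median log2 fold change was -0.05, against 0.04. Vldlr, a lipoprotein receptor induced by hypoxia, was 2443 and 2593.5 in young against 4964.5 and 5059 in old HSCs. It rose with replicates that nearly coincided within each age (log2 fold change 0.99, SE 0.13, adjusted p = 0.0160 in limma), and without single replicates the log2 fold change stayed between 0.95 and 1.04. The call was lost without young 13 (adjusted p = 0.143) and without young 14 (adjusted p = 0.149), and, like every call, without either old replicate. Lox, a collagen cross-linking oxidase, was 89 and 90.5 in young against 196 and 243.5 in old HSCs (1.28, adjusted p = 0.0456). Hmox1, which breaks down haem, fell from 858.5 and 969 in young to 507.5 and 494.5 in old HSCs (-0.86, adjusted p = 0.0468). Without single replicates the log2 fold change ranged from 1.12 to 1.43 for Lox and from -0.95 to -0.78 for Hmox1. Neither passed without young 13 (adjusted p = 0.144 and 0.163) or without young 14 (adjusted p = 0.192 and 0.419). Lox is also made by stroma and Hmox1 by macrophages, and the markers of both were lower in old HSCs, as given above; their part in these values was not tested.

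The next smallest p among these targets belonged to Pdgfb, a growth factor chain, at 540.5 and 528 in young against 886.5 and 819 in old HSCs (0.67, adjusted p = 0.0940). Bnip3, a mitophagy receptor that is among the standard HIF readouts, was 763.5 and 865.5 in young against 783 and 1096.5 in old HSCs, and Car9, a carbonic anhydrase and another such readout, was 578 and 507.5 against 499 and 489.5. Neither passed. The 6 targets under the filter included Epo, the kidney hormone, and Adm. Bnip3, Car9, Pdk1, Hif1an, Gapdh, Pgk1, Pgam1, Epo and Adm are outside the rule for named genes and were picked with their values known. So were Procr, Vwf, Cdh5, Plvap, Pecam1, Tek, Emcn, Ltf, Mpo and the called markers named above.

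Of 13 genes of the VEGF and angiopoietin systems 12 passed the filter, 1 rose and 0 fell, against 2.01% and 0.54% of all tested genes, and the median log2 fold change was 0.01. Kdr, the main signalling receptor for Vegfa and a gene that HIF-2 can drive in endothelium, was 470 and 598 in young against 1331.5 and 1296.5 in old HSCs. It rose 2.48-fold (log2 fold change 1.31, SE 0.18, adjusted p = 0.0158 in limma), while its ligand Vegfa had the lower fitted values described above. The call was lost without young 13 (log2 fold change 1.13, adjusted p = 0.0818) and held without young 14 (1.48, adjusted p = 0.0375); without old 13 or old 14, where 0 genes were called in all, the log2 fold change was 1.29 and 1.33. Nrp2, a coreceptor, was 142.5 and 145 in young against 230 and 214.5 in old HSCs (0.63, adjusted p = 0.235). Flt1, the decoy receptor, was near the detection floor at 16 and 27 in young against 11.5 and 9.5 in old HSCs, and Flt4, the receptor of lymphatic vessels, was 125 and 104 against 137.5 and 141. Neither passed.

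**Figure D4:**
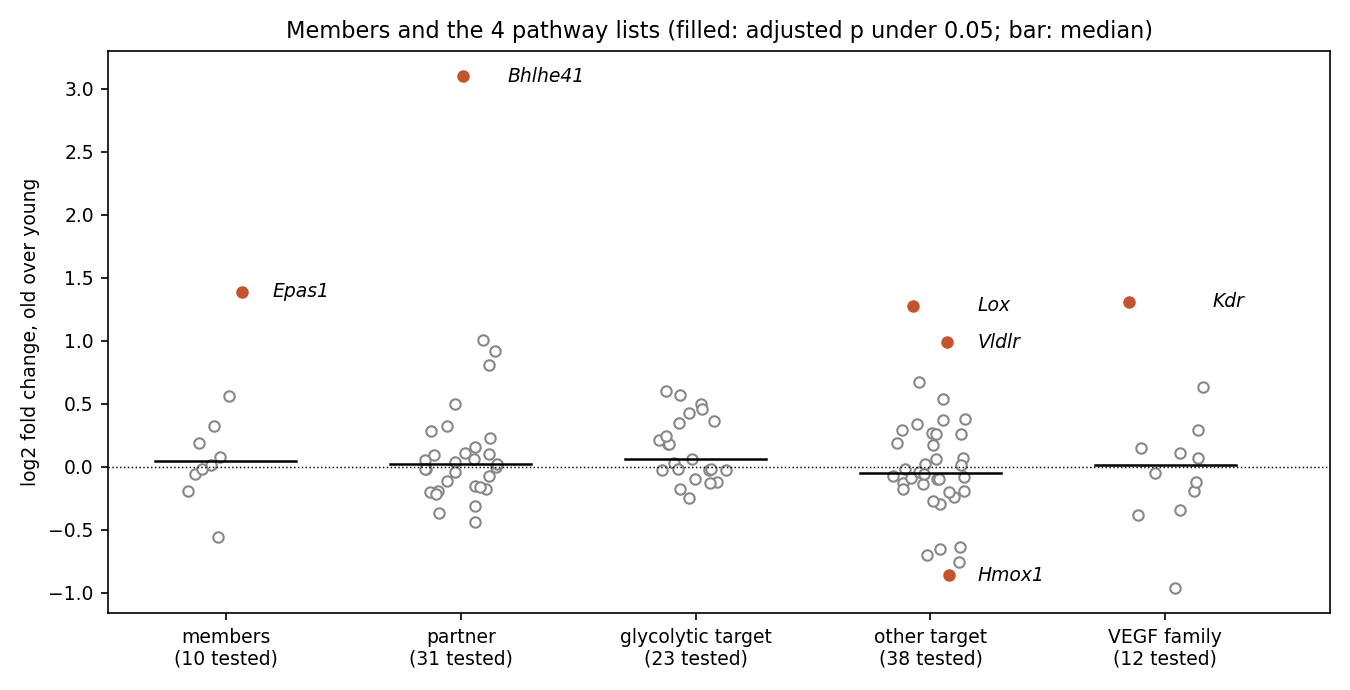
Log2 fold change of old over young HSCs for every tested gene among the 10 members and the 4 pathway lists (points); bars are medians and filled, named points passed the adjusted threshold. The medians lie between -0.05 and 0.06, and the 6 filled genes stand apart from the rest of their lists or, for Hmox1, at the lower edge.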

How the data were processed

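The build mm9 and the tool DESeq are named, with no role, in the submitters' processing notes; for the aligner and the counter no source used here gives a name. The gene values that the authors deposited under a count-like name are a score: reads multiplied by 1 factor per library and rounded. In 4 libraries the factor is above 1 and whole numbers are skipped; in the other 4 it is below 1, and numbers to which 2 read counts round hold 1.77 to 2.1 times as many genes as their neighbours. The deposited FPKM is that score times 1 constant per gene. The authors' deposited table adds log2 fold changes and, as adjusted p-values, an FDR for each gene.

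Scores of technical pairs were averaged. Limma 3.58.1, run in R 4.3.3, fitted log2(value + 0.5) of the 4 replicates on age alone, with a trended prior, two-sided tests and Benjamini-Hochberg adjustment over the 18318 genes with a value of at least 10 in at least 2 replicates. Fold changes on this scale understate those of low genes. The fit was tested on simulated data. Counting precision rests on the 22.3 M to 66.5 M reads per library. The 10 members and the lists (4 of pathway genes, 8 of markers) were chosen with earlier results of these data known. Named were all members, the 4 genes with the smallest p in each pathway list, the 3 genes most like the member with the smallest p, sort markers and the most abundant gene by FPKM of each marker list. Alternatives changed the pseudocount, filter, scaling, model, prior and technical libraries, left out each replicate, or added the replicate number.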

Additional observations from a re-analysis of the deposited data

How the results depend on the processing

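Over 15 alternatives the log2 fold change of Epas1 stayed between 1.21 and 1.56 and was called in 10. Signs turned in at least 1 alternative for 5 members (Hif1a, Arnt, Vhl, Egln1 and Egln2), all near 0 and uncalled; the other 5 kept theirs. Calls over all genes, 467, became 302 with a mean FPKM of at least 1, where fewer genes were tested, 302 with the lower-numbered technical libraries and 0 with no filter on low values (2943 at an unadjusted p under 0.05 in limma). The latter also gave 0 members, 0 partner, 0 other target and 0 VEGF family genes. A prior without a trend gave 0 members, 0 other targets and 0 VEGF family genes. Partner genes called fell from 1 to 0 with a mean FPKM of at least 1, which removed Bhlhe41, and with the higher-numbered technical libraries. Other targets called fell from 3 to 1, with Vldlr left and Lox and Hmox1 lost, with a mean FPKM of at least 1, with equal totals and with either half-set of technical libraries. The FPKM filter removed Lox from the test, while Hmox1 stayed in and missed the threshold (adjusted p = 0.0532 in limma). The cause of the losses other than by removal was not tested. Leaving out each replicate gave 0 to 274 calls over all genes (0 without old 13, with 3669 at an unadjusted p under 0.05, and 0 without old 14, with 1933; 187 without young 14), 0 to 1 for members, partners and VEGF family genes, and 0 for both target lists. The log2 ratio of Epas1 to Hif1a was higher in old than in young HSCs by 1.31 with all replicates. That difference was 1.02 to 1.60 without single replicates and 1.22 with 0.1 added to each FPKM.

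With the replicate number as a block, limma called 2766 of all 18318 genes tested (1698 higher and 1068 lower), against 467 on age alone. These held 3 of the 10 members (Epas1 and Cited2 higher, adjusted p = 3.16e-06 and 0.00454, Vegfa lower, 0.0168). They also held 6 of 31 partner genes (5 higher and 1 lower) and 5 of 23 glycolytic targets (5 higher). Of the other targets 7 of 38 were called (3 higher and 4 lower), and of the VEGF family 2 of 12 (2 higher). Calls thus rose over all genes and not only in these lists. The labels do not say that a number marks shared mice or a shared day, and the deviations of the replicates numbered 13 correlated across genes with r = 0.544. All 10 members differed between replicates 13 and 14 in the same direction at both ages, as did 68.1% of tested genes. Depth limits the genes with low values, such as Bhlhe41, at most 46.5, and Flt1, at most 27.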
